A study of Mus musculus with 6 samples.

Results

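The 10 genes described here encode the antigen receptor of αβ T cells, the CD3 chains that carry its signal and the coreceptors CD4 and CD8. They were found in the count table by their symbols Cd3d, Cd3e, Cd3g, Cd247, Trac, Trbc1, Trbc2, Cd4, Cd8a and Cd8b1, and make up 10 of the 55401 genes listed. Bulk RNA sequencing measured them in 6 libraries of cultured mouse cells, which the labels give as T cells. Of these libraries, 3 were grown with control macrophage supernatant (control). The other 3 had the supernatant of macrophages exposed to neurofilament light chain (NFL), an axonal protein. By the design text, the T cells of both groups came from spleen by positive selection with CD8a beads. The macrophages of both groups came from CD11b-selected spleen monocytes given 50 ng/mL M-CSF for 7 days, and 50% of the T-cell medium, RPMI with 2% FBS, was their supernatant. In the NFL group the macrophages had received 5 µg/mL NFL for 24 h, more than the published methods state for macrophage cultures. The design text derives this NFL from sciatic nerve lysed by freezing and thawing, but the published methods describe NFL as a purchased protein and the nerve lysate as a separate preparation, so which of them was used for these libraries is uncertain. The labels give no genotype, strain, age or sex of the mice, no pooling and no length of the T-cell culture, and do not say whether the 3 libraries of a group came from separate animals or cultures. The p-values therefore measure the spread between these libraries, which may be technical.

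The αβ T-cell receptor recognises a peptide held by an MHC molecule through its variable α and β chains, which have no signalling tail of their own. The signal passes through the associated CD3γ, CD3δ, CD3ε and ζ chains, whose tyrosine motifs are phosphorylated and bind the kinase ZAP-70. CD4 and CD8 bind MHC class II and class I, respectively, and bring the kinase LCK to the receptor, so that mature T cells are usually divided by which of them they carry.

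The β chain can end in either of a pair of constant genes, and near-identical genes can exchange reads in counting, so their sequences are shown first. In GENCODE M21, the annotated transcripts Trbc1-202 and Trbc2-201 have 518 coding bases each. Their first coding exon of 375 bases differs at 1 base, whereas the remaining 143 bases, coding bases 376 to 518, differ at 22 and are 84.6% identical. Those 143 bases are printed 5′ to 3′ with the differing bases in capitals.
Trbc1: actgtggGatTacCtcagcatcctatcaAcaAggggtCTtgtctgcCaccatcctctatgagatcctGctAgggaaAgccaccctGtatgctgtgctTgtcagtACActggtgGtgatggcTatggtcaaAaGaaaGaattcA
Trbc2: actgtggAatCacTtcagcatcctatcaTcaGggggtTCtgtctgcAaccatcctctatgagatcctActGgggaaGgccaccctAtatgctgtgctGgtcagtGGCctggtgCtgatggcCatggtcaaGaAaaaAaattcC
Of all stretches of 100 bases in the Trbc1 transcript, 28.7% also occur in that of Trbc2, and of all stretches of 150 bases 18.7% do. How reads that match both genes were counted is not given in the sources used here.

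Among the TRB variable segments, Trbv1 took 40724 of the 40748 counts over the 6 libraries. Its second coding exon, 295 bases at chr6:40891591-40891885 on the plus strand of GRCm38, is shown because nearly all β-chain variable counts fell on this 1 gene.
Trbv1: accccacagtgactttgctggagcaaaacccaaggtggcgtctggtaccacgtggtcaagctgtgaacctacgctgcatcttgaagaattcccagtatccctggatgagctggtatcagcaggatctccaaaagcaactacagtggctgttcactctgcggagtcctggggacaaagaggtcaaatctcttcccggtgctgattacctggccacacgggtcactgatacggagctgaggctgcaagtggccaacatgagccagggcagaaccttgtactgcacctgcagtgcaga

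Total counts ranged from 15843045 to 24639756 per library, and 3 counts, taken as the detection floor, corresponded to 0.122 to 0.189 CPM. The CPM unit is a count divided by the size of its library. No library was a copy of another, since pairs within a group had 1.88 to 3.42 as their chi-square divided by its degrees of freedom, where counting noise alone gives about 1. Against the labelled cell type, the picture was mixed. All 10 receptor, CD3 and coreceptor genes and Thy1, a T-cell surface glycoprotein (1669 ± 51.1 CPM in the control and 1610.0 ± 49.5 CPM in the NFL libraries, SD, n = 3 each), were detected in all 6 libraries. Cd2 and Cd5, which most T cells express, and Trat1, a partner of the receptor complex, had 0 counts in all 6. Ptprc, which encodes the leukocyte antigen CD45, had 3 to 9 counts. Of 23 proximal signalling genes of the receptor, 15 passed the low-count filter used for testing. Themis had 0 counts in every library and Lck 59 to 123, against 2253 to 3996 for Fyn and 3025 to 4948 for Zap70. Of 19 regulators of T-cell lineage and receptor genes, 14 passed. Ets1 had 0 to 2 counts and Tcf7 0 to 4, against 4779 to 8137 for Runx3. On the TRB variable segments, 99.9% of counts over the 6 libraries fell on Trbv1 alone, and 8 of the 35 listed segments had any count. Among markers of other cell types, 5 of 8 macrophage genes were at 0 in every library and none reached 10 counts, with Mrc1, Cd14, Itgam, C1qa and C1qb at 0. The B cell genes Ms4a1 and Ighm were at 0, while Cd79a had 23 to 39 counts and Cd79b 14 to 37. The dendritic, neutrophil and erythroid lists were near the floor, with Flt3, Siglech, S100a8, Hba-a1 and Hbb-bt at 0 and at most 15 counts, for Xcr1. Of 4 natural killer cell genes, Ncr1 and Klrd1 were at 0, Eomes had 438 ± 12.2 and 426 ± 10.1 CPM, and Klrb1c had 31.6 ± 1.75 and 22.3 ± 0.321 CPM with control and NFL supernatant.

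To compare genes with each other, counts were divided by exon length and library total (RPKM). Trbc1 was the most abundant of the 10 genes, with a median of 476 RPKM over the 6 libraries (458 to 499.9), followed by Trbc2 with 82.2 RPKM (76.5 to 86.2). The CD3 chains and Trac were far lower. Cd3e had a median of 13.1 RPKM (12.0 to 15.9), Cd247, which encodes the ζ chain, 8.42 RPKM (7.03 to 8.83), Cd3g 2.35 RPKM (1.84 to 2.71) and Cd3d 2.28 RPKM (1.29 to 2.64). Trac, the constant gene of the α chain that pairs with the β chain, had 1.71 RPKM (1.06 to 2.66).

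Of the coreceptors, Cd4 had a median of 6.42 RPKM (5.74 to 6.82), Cd8a, the CD8 α chain, 1.07 RPKM (0.885 to 1.23) and Cd8b1, the CD8 β chain, 0.859 RPKM (0.583 to 1.06). From Trbc1 down to Cd4 and Cd3g, the ranges of neighbouring genes in this order did not overlap. The ranges of Cd3g and Cd3d, of Cd3d and Trac, of Trac and Cd8a and of Cd8a and Cd8b1 overlapped, so these neighbours were not ordered beyond their spread, while every value of Cd3g and Cd3d lay above every value of Cd8a and Cd8b1. All 10 genes kept their place in the order when the longest annotated transcript was used as the length.

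**Figure D1:**
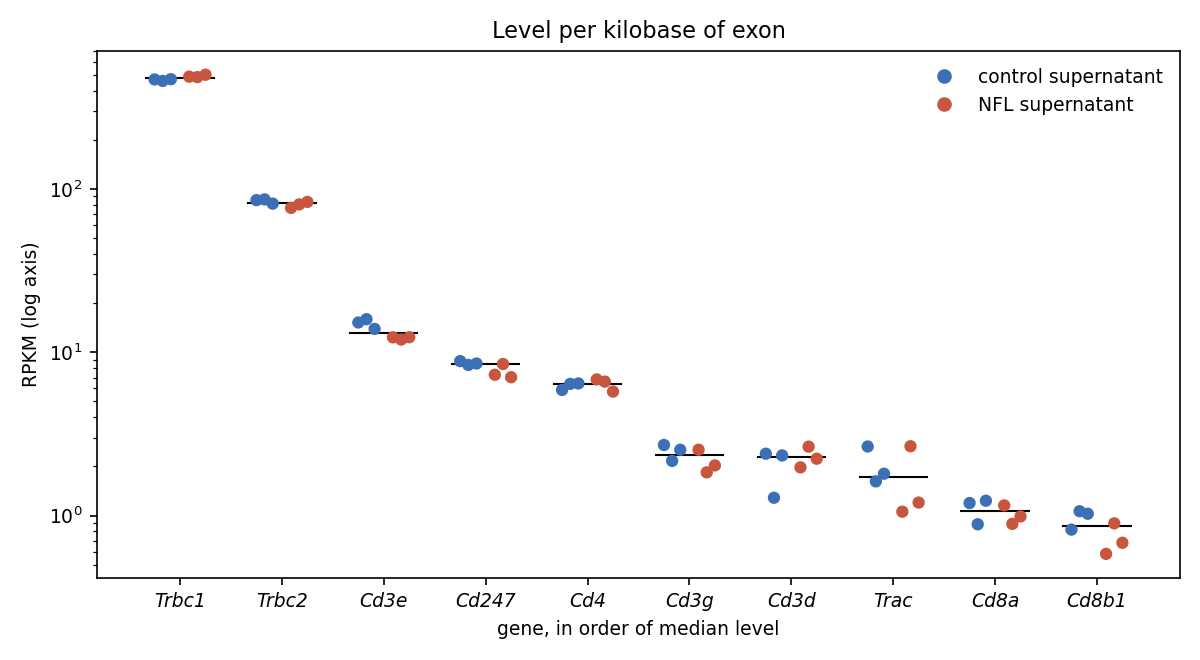
Level of each gene per kilobase of exon on a log axis (RPKM), in order of the median over the 6 libraries (black line), with 1 point per library. Trbc1 lies near 476 RPKM and Cd8b1 near 0.859 RPKM, and the points of the lowest genes overlap.

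The 10 genes lie at few places in the genome. Positions are those of GENCODE M21 (GRCm38), whose identifiers, with version, are the same for all 10 genes, although the submitters' processing notes name GRCm39. Cd3g (ENSMUSG00000002033.14, chr9:44969572-44980431, minus strand), Cd3d (ENSMUSG00000032094.8, chr9:44981786-44987339, plus strand) and Cd3e (ENSMUSG00000032093.7, chr9:44998740-45009627, minus strand) are neighbours, and the starts of Cd3g and Cd3d are 1355 bases apart on opposite strands. Their levels were nevertheless unequal, with Cd3e above both neighbours in 6 of 6 libraries on the RPKM scale. Cd8b1 (ENSMUSG00000053044.8, chr6:71322788-71337494) and Cd8a (ENSMUSG00000053977.13, chr6:71373427-71379173) are also neighbours on the plus strand. Trbc1 (ENSMUSG00000076490.6, chr6:41538218-41539881) and Trbc2 (ENSMUSG00000076498.2, chr6:41546730-41548352) are 6849 bases apart, also on the plus strand. Cd4 (ENSMUSG00000023274.14, chr6:124864692-124888221, minus strand), Trac (ENSMUSG00000076928.5, chr14:54220521-54224206, plus strand) and Cd247 (ENSMUSG00000005763.15, chr1:165788681-165877277, plus strand) lie apart from the others.

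With NFL supernatant, Cd3e fell by 0.28 on the log2 scale and was the only gene of the 10 past the threshold of an adjusted p-value of 0.05, in edgeR's quasi-likelihood test over the 14082 genes tested. All 10 genes passed the low-count filter. Of all genes tested, 7.00% passed the threshold, 3.47% as higher and 3.53% as lower with NFL supernatant, so 1 of 10 is near the background. The mean was higher with NFL supernatant for 3 of the 10 genes and lower for 7, with a median log2 fold change of -0.15 against -0.001 over all genes tested. The libraries of the 2 groups did not overlap for 2 of the 10 genes, Cd3e and Trbc1, where 22.7% of all tested genes showed no overlap.

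Cd3e encodes CD3ε, the chain that pairs with both CD3γ and CD3δ. It had 62.0, 64.5 and 56.3 CPM in control replicates 1 to 3, and 50.5, 49.0 and 50.7 CPM in NFL replicates 1 to 3. Every NFL library lay below every control library, and the NFL libraries were close together. The mean fell from 60.9 ± 4.24 to 50.1 ± 0.959 CPM (SD, n = 3 each). The log2 fold change was -0.28 (standard error 0.056, 95% interval -0.39 to -0.17, edgeR adjusted p = 0.000573). In bulk RNA, fewer cells of a type and less RNA per cell cannot be told apart. Exons of Cd3e overlap those of the antisense gene Gm48719, which had 6 to 27 counts against 815 to 1529 for Cd3e, and the strand setting of the counting is not given. Of the natural killer cell genes given above, Klrb1c fell in the same libraries (log2 fold change -0.51, edgeR adjusted p = 2.43e-06) and Eomes had a log2 fold change of -0.04 (adjusted p = 0.486), and the summed level of that list was 461 to 482 CPM with control and 437 to 458 CPM with NFL supernatant. Their part in the result was not tested.

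Cd247 encodes the ζ chain, which carries most of the tyrosine motifs of the complex. It had 47.0, 44.2 and 45.2 CPM in the control libraries and 39.0, 45.3 and 37.7 CPM in the NFL libraries. NFL replicates 1 and 3 lay below every control library, whereas NFL replicate 2 lay within the control range. The log2 fold change was -0.16 (95% interval -0.29 to -0.03), and the adjusted p of 0.124 in edgeR's test did not pass the threshold. Without NFL replicate 2 the log2 fold change was -0.25 with an edgeR adjusted p of 0.0292. That was the only 1 of 14 alternative analyses in which Cd247 passed. Without NFL replicate 3 it was -0.11 with an edgeR adjusted p of 0.506. Exons of Cd247 overlap those of Pou2f1 on the opposite strand, which had 1023 to 1702 counts and 67.4 ± 2.92 and 67.5 ± 2.42 CPM in the 2 groups (SD, n = 3 each).

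Cd3g, the γ chain gene, had 8.85, 7.02 and 8.21 CPM with control and 8.31, 6.04 and 6.67 CPM with NFL supernatant. Its groups overlapped, and its log2 fold change of -0.21 had a 95% interval of -0.49 to 0.07 (edgeR adjusted p = 0.456). Cd3d, the δ chain gene, had 4.34, 2.32 and 4.21 CPM with control and 3.60, 4.82 and 4.07 CPM with NFL supernatant. Control replicate 2 was the lowest of the 6, with 37 counts. The log2 fold change of Cd3d was 0.17 (95% interval -0.24 to 0.57, adjusted p = 0.735) and -0.03 without control replicate 2. The 95% intervals of Cd3g and Cd3d both overlap that of Cd3e, and no difference between the 3 genes was tested.

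**Figure D2:**
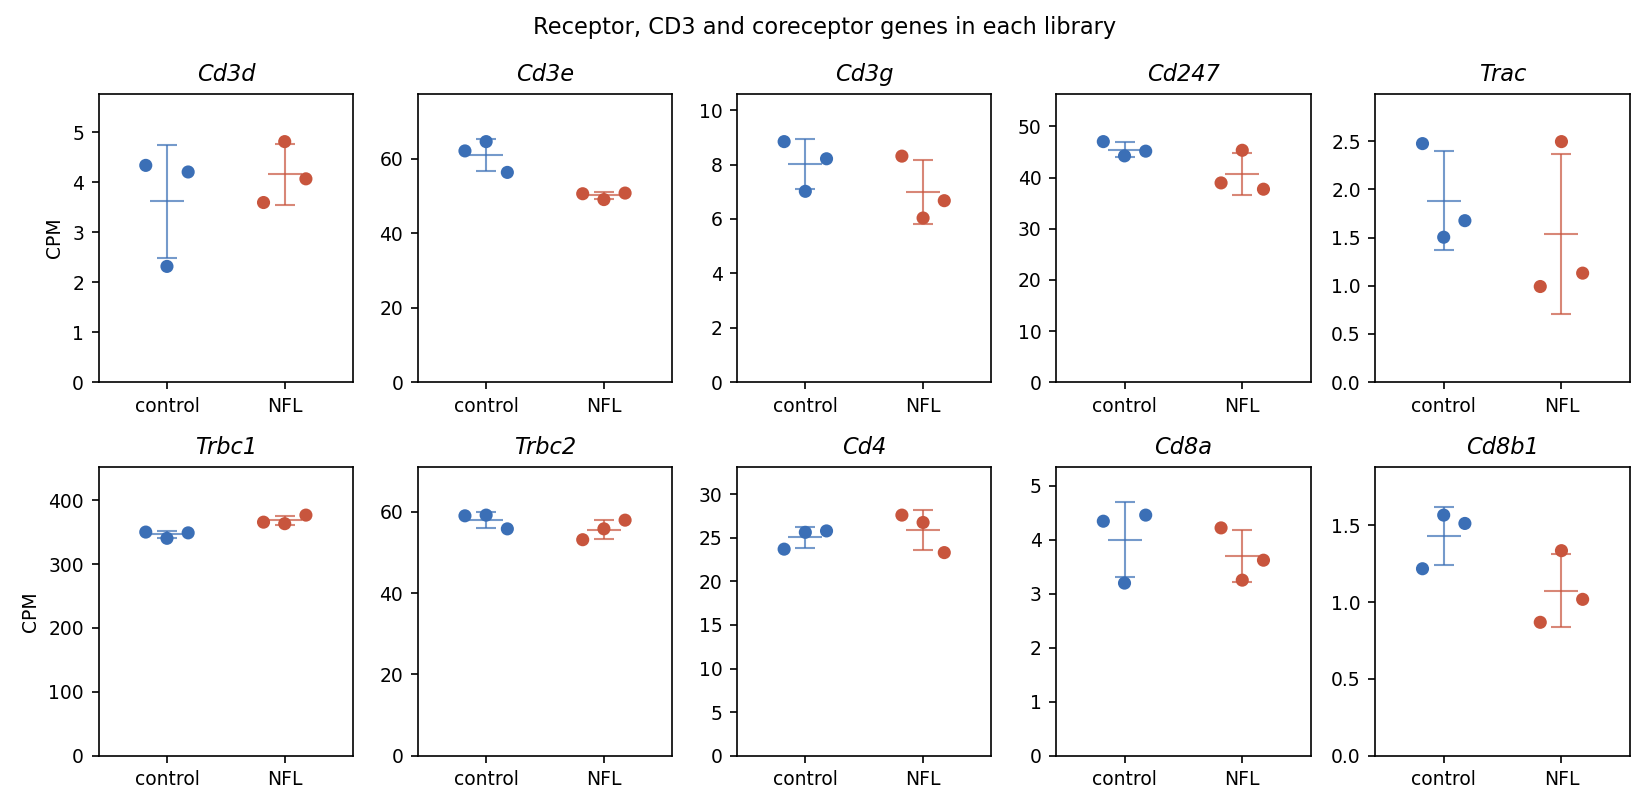
CPM of each of the 10 genes in the 6 libraries, scaled by TMM-adjusted library size, with 1 point per library and the mean ± SD of each group (n = 3). The NFL points of Cd3e lie below all control points, those of Trbc1 lie above them, and the groups overlap for the other 8 genes.

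Trbc1, the first of the constant β genes, had 350.2, 340.5 and 349 CPM in the control libraries and 366, 363 and 377 CPM in the NFL libraries. All NFL libraries lay above all control libraries, by a small margin. Its log2 fold change was 0.09 (standard error 0.030, 95% interval 0.03 to 0.15). The adjusted p was 0.0593 in edgeR's test, above the threshold, and 0.0479 with limma-voom. Trbc1 passed in 2 of 14 alternative analyses, and its edgeR adjusted p reached 0.300 without NFL replicate 3. Trbc2 had 59.0, 59.2 and 55.8 CPM with control and 53.2, 55.8 and 58.0 CPM with NFL supernatant, and its groups overlapped (log2 fold change -0.06, 95% interval -0.17 to 0.05, adjusted p = 0.633). With the counts of both genes added, which takes no account of how shared reads were split, the level was 405 ± 4.80 and 424 ± 9.07 CPM (log2 fold change 0.07, edgeR adjusted p = 0.168).

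The variable segment Trbv1 has a count of its own. Whether its reads came from the same transcripts as those of Trbc1 or Trbc2 was not tested. In CPM, Trbv1 had 341, 340.6 and 335 in the control libraries and 369, 364 and 365 in the NFL libraries, and the groups did not overlap. Trbv1 rose from 339 ± 3.31 to 366 ± 2.39 CPM (log2 fold change 0.11, standard error 0.029, edgeR adjusted p = 0.0113), and without NFL replicate 3 its adjusted p was 0.0598. Whether the changes of Trbv1 and Trbc1 differ was not tested, and their 95% intervals overlap, 0.05 to 0.17 for Trbv1.

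The share of Trbc1 in the counts of Trbc1 and Trbc2, which does not depend on library size, was 85.6%, 85.2% and 86.2% in the control libraries and 87.3%, 86.7% and 86.7% in the NFL libraries. Each NFL library had a larger share than each control library. The mean rose from 85.7 ± 0.517% to 86.9 ± 0.368% (SD, n = 3), but the exact two-sided permutation p of 0.1 is the smallest that 3 against 3 libraries can give and does not pass the threshold. With 6379 to 10087 counts per library the Wilson 95% intervals were about as wide as the difference, 85.5% to 86.9% for control replicate 3 and 85.9% to 87.4% for NFL replicate 3, and they cover counting error only.

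The joining segments, which lie before each constant gene in their own cluster, were looked at after their values were seen and were not tested. Trbj1 segments, upstream of Trbc1, took 33.8%, 36.3% and 34.9% of the Trbj counts in the control libraries and 41.8%, 45.7% and 41.0% in the NFL libraries. The shares in the NFL libraries were all above those in the control libraries, 42.9 ± 2.51% against 35.0 ± 1.26% (SD, n = 3 each), on 339 to 559 counts per library. Trbj2-1 was the single joining segment with the most counts, 727 of 2471, followed by Trbj1-7 with 359 and Trbj2-7 with 338. The Trbj1 share was thus much lower than the Trbc1 share in every library.

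**Figure D3:**
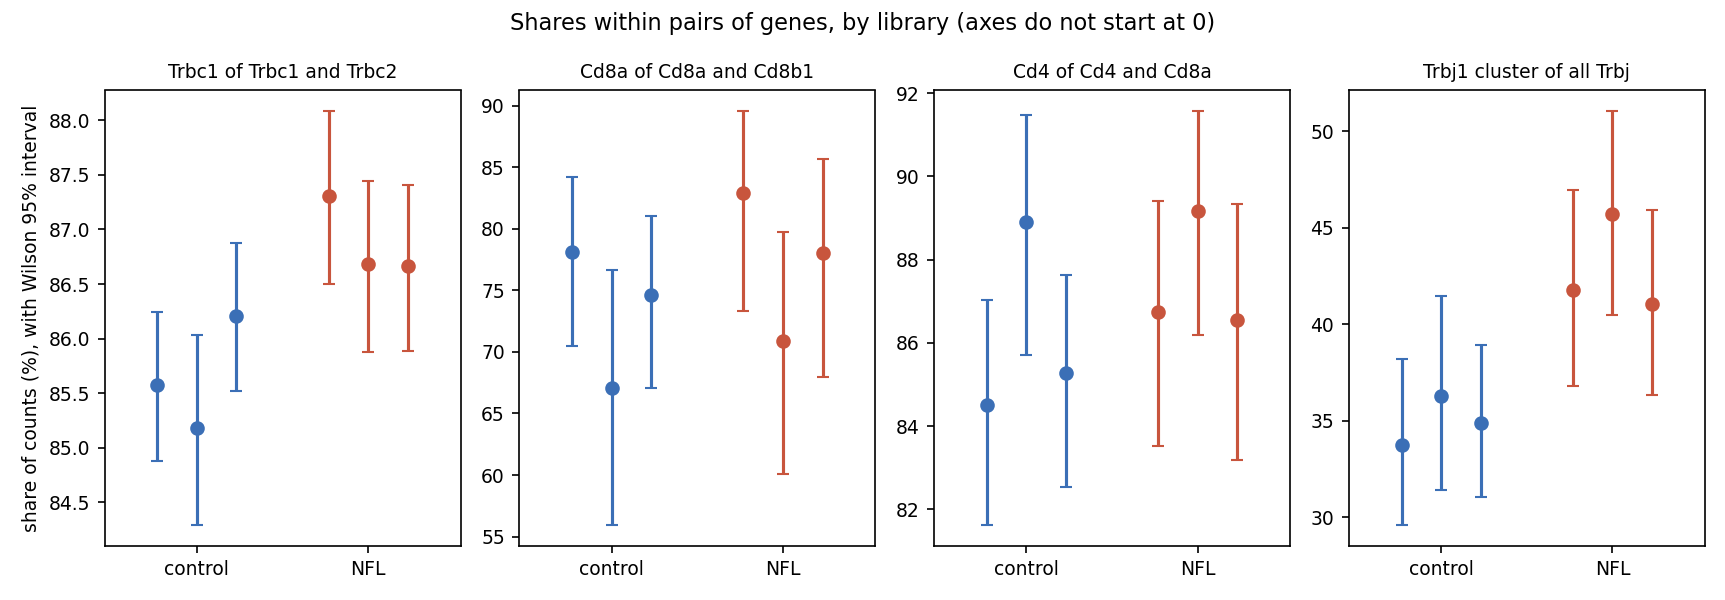
Shares of counts in percent within pairs of genes and, on the right, of the Trbj1 cluster among all Trbj segments, with 1 point per library and its Wilson 95% interval. The Trbc1 and Trbj1 shares are higher in the 3 NFL libraries, and those of Cd8a and Cd4 overlap between the groups.

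The α chain gave little signal beside the β chain. Trac had 61, 24 and 41 counts in the control libraries and 16, 43 and 20 in the NFL libraries, or 2.48, 1.50 and 1.68 CPM against 0.992, 2.50 and 1.13 CPM. The groups overlapped, and the log2 fold change of -0.31 had a wide 95% interval of -0.95 to 0.34 (edgeR adjusted p = 0.678). For each Trac count there were 165 to 422 counts on the β constant genes. Of 215 counts on TRA variable segments 195 fell on Trav16n, followed by Trav6d-3 with 17 and Trav11n with 2, and TRA joining segments had 18 counts in all, of which Traj18 held 5. Trbd2 had 254 of the 260 counts on the TRB diversity segments.

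The γδ receptor, built from other constant genes, was low. Trdc and Trgc1 had 0 counts in every library, which allows at most 0.122 to 0.189 CPM, and TRD segments also had 0 counts. Trgc2 (Tcrg-C2 in the annotation) took 113 of the 117 counts on γ constant genes, with 47, 8 and 26 counts in the control libraries and 4, 11 and 17 in the NFL libraries. Its log2 fold change of -0.94 did not pass the threshold (edgeR adjusted p = 0.223), and the groups overlapped.

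No coreceptor gene passed the threshold with edgeR or limma-voom, and in edgeR's test 0 of the 3 had an unadjusted p under 0.05. DESeq2 gave an adjusted p for Cd4 alone (0.853) and none for Cd8a and Cd8b1. Cd4 had 23.7, 25.6 and 25.8 CPM in the control libraries and 27.6, 26.8 and 23.3 CPM in the NFL libraries, so the NFL libraries held both the highest and the lowest value. Its log2 fold change was 0.05 (95% interval -0.11 to 0.21, edgeR adjusted p = 0.814). Cd8a had 4.34, 3.20 and 4.45 CPM with control and 4.22, 3.25 and 3.62 CPM with NFL supernatant, with overlapping groups and a log2 fold change of -0.14 (95% interval -0.53 to 0.26, adjusted p = 0.785).

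Cd8b1 had 1.22, 1.57 and 1.51 CPM with control and 0.868, 1.33 and 1.02 CPM with NFL supernatant, on 14 to 37 counts per library. NFL replicates 1 and 3 lay below the control range and NFL replicate 2 within it. The log2 fold change of -0.40 had a 95% interval of -1.10 to 0.30 (edgeR adjusted p = 0.602), so a change of the size seen for Cd3e was not detectable at this depth.

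Although the design text gives the cells as selected with CD8a beads, Cd4 exceeded Cd8a per kilobase in 6 of 6 libraries. Cd4 made up 85.0 ± 2.53% of the length-corrected counts of Cd4 and Cd8a with control and 86.3 ± 1.57% with NFL supernatant (SD, n = 3 each, exact two-sided permutation p = 0.5 for the difference). Zbtb7b, the transcription factor of the CD4 lineage, had 20.2 and 19.3 CPM in the 2 groups, and Runx3, that of the CD8 lineage, 324 and 294 CPM. Of the counts of Cd8a and Cd8b1, Cd8a took 73.3 ± 5.62% with control and 77.3 ± 6.06% with NFL supernatant (exact two-sided permutation p = 0.5). These are RNA levels, and the surface proteins were not measured in these libraries.

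**Figure D4:**
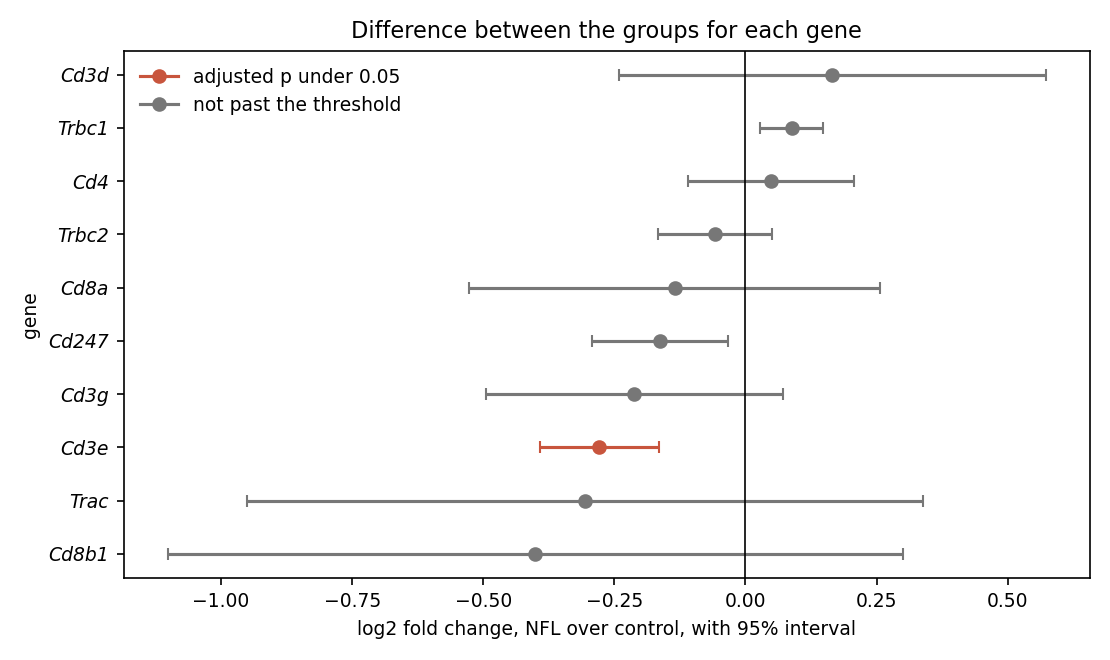
Log2 fold change of each gene, NFL over control supernatant, with its 95% interval from edgeR's quasi-likelihood fit. Cd3e at -0.28 is the only gene past an adjusted p of 0.05, and the intervals of Trac and Cd8b1, the genes with the fewest counts, are the widest.

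Other genes of the receptor pathway were read from 5 lists of 81 genes, of which 51 were tested. Of these 51, 1 was higher and 16 were lower with NFL supernatant past the threshold (33.3% against 7.00% of all genes tested), and the median log2 fold change was -0.09. Without NFL replicate 3, 9 list genes passed the threshold. The lists were chosen with earlier results of these data known, so these counts are a description.

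Proximal signalling genes held 8 of these 17 calls, on 15 tested genes, and 7 of the 8 were lower. Txk, a TEC family kinase, fell from 67.7 ± 5.79 to 51.5 ± 3.45 CPM (SD, n = 3 each, log2 fold change -0.40, edgeR adjusted p = 1.48e-06). Lat, the adaptor that ZAP-70 phosphorylates, fell by 0.26 on the log2 scale (adjusted p = 0.000870) and Fyn, a SRC family kinase that acts on the CD3 chains, by 0.20 (adjusted p = 0.000175). All 3 remained past the threshold in each of 14 alternative analyses. Zap70, the most abundant gene of the list per kilobase, fell by 0.12 (adjusted p = 0.0282) and Tec, another TEC family kinase, by 0.18 (adjusted p = 0.0313), and both lost the threshold with the DESeq2 Wald test. Leaving out 1 library also ended the call of Zap70 (control replicate 1 or 2, NFL replicate 2 or 3, adjusted p up to 0.188) and of Tec (any but control replicate 2, adjusted p up to 0.222). The adaptor Grb2 had 123 ± 5.22 and 121 ± 5.51 CPM (adjusted p = 0.846).

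Of the regulators of T-cell lineage and receptor genes, 6 of 14 tested genes passed the threshold as lower and none as higher. Ikzf1, the zinc finger factor IKAROS, fell from 316 ± 4.2 to 270.2 ± 3.34 CPM (SD, n = 3 each, log2 fold change -0.22, edgeR adjusted p = 4.13e-07). Tcf3, an E protein, fell by 0.27 on the log2 scale (adjusted p = 6.55e-05) and Runx3 by 0.14 (adjusted p = 0.00164). Runx1, of the same family as Runx3, had a log2 fold change of -0.29 (adjusted p = 0.0175), and Gata3, a factor of CD4 lineage development, one of -0.22 (adjusted p = 0.0126). Both were lost without NFL replicate 3, Runx1 also without control replicate 2 or NFL replicate 2 and Gata3 also without control replicate 1, with adjusted p up to 0.128 and 0.195. Cbfb, the partner of the RUNX factors, had 317 ± 6.05 and 326 ± 1.64 CPM (adjusted p = 0.510).

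Of the negative regulators, 2 of 14 tested genes passed, both lower. In edgeR's test Lax1, an adaptor that limits receptor signalling, fell by 0.38 on the log2 scale (adjusted p = 0.00259) and Sla2, an adaptor that promotes turnover of the receptor complex, by 0.35 (adjusted p = 6.20e-05). Exons of Sla2 overlap those of Rab5if on the opposite strand, whose mean count was 91.4% of that of Sla2 and whose level was 38.7 ± 5.13 and 39.5 ± 2.82 CPM. The abundant members Dok2 and Ptpn2 had log2 fold changes of 0.09 each (adjusted p = 0.110 and 0.293).

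Of 15 receptor partners and other receptor chains, 5 were tested and 1 passed. Lag3, an inhibitory relative of CD4 that binds MHC class II, fell from 116 ± 5.18 to 104 ± 5.58 CPM (SD, n = 3 each, log2 fold change -0.15, edgeR adjusted p = 0.0173), and its adjusted p rose to as much as 0.239 without control replicate 2, NFL replicate 2 or NFL replicate 3, each of which ended the call. Fcer1g, a signalling chain related to ζ, had 185 ± 8.04 and 181 ± 2.46 CPM (adjusted p = 0.778), and Thy1 a log2 fold change of -0.05 (adjusted p = 0.276).

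None of the 3 tested recombination genes passed the threshold, with DESeq2 and limma-voom as with edgeR, and in edgeR's test 2 of them, Dclre1c and Lig4, had an unadjusted p under 0.05 (0.0222 and 0.0262). Both are DNA repair genes used in receptor rearrangement, with log2 fold changes of 0.13 and 0.21 (adjusted p = 0.163 and 0.179). Lig4 passed the threshold without NFL replicate 1 (adjusted p = 0.0331). Exons of Dclre1c overlap those of Suv39h2 on the opposite strand, whose mean count was 139.3% of that of Dclre1c. Suv39h2 itself passed the threshold as higher (log2 fold change 0.16, edgeR adjusted p = 0.0401), and its part in the Dclre1c value was not tested. The recombinase genes Rag1 and Rag2 had at most 2 counts in any library and Dntt 0.

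**Figure D5:**
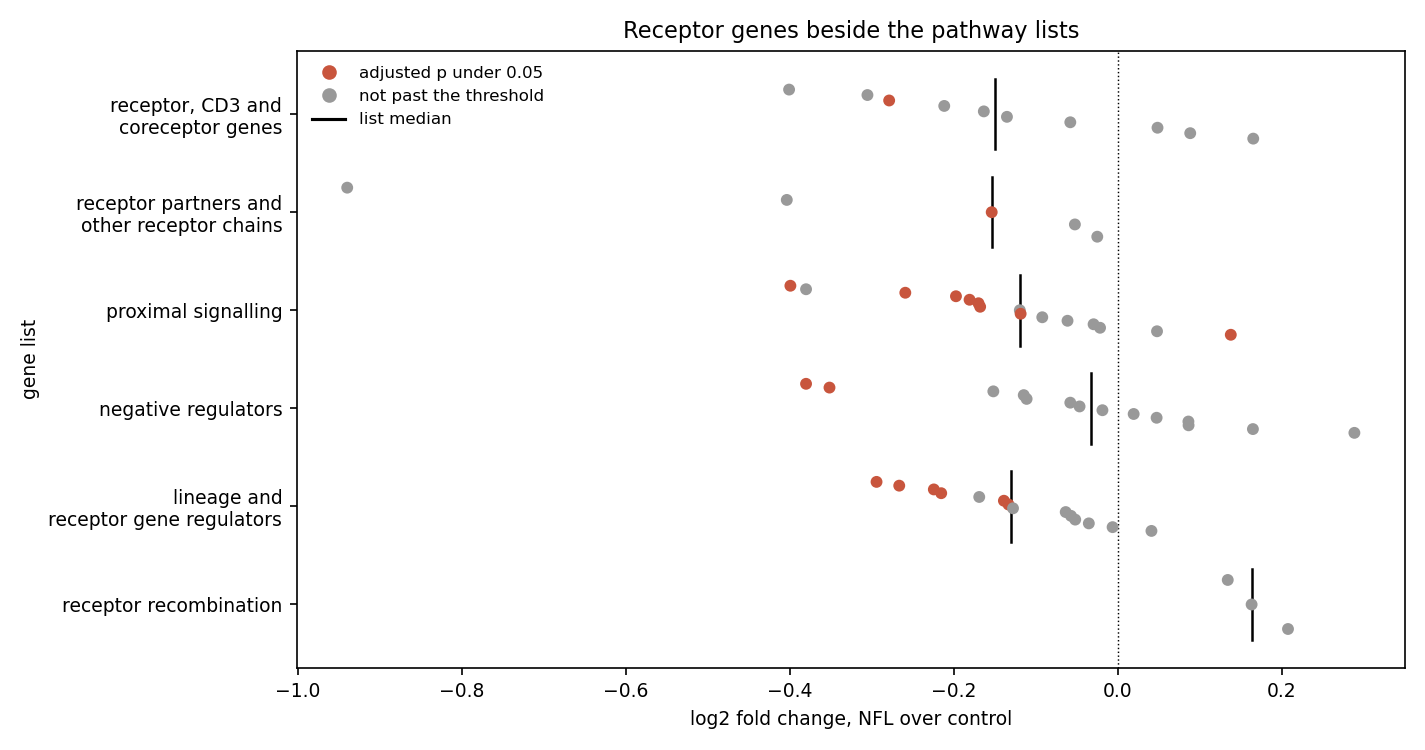
Log2 fold change, NFL over control supernatant, of each tested gene of the receptor, CD3 and coreceptor group and of the 5 pathway lists, with 1 point per gene, calls in red and the list median as a black line. Most calls lie left of 0 in the signalling and lineage lists, and 1 of the 10 receptor genes is called.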

How the data were processed

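RNA was measured by poly(A)-selected sequencing in 6 libraries. The authors deposited raw read counts per gene for 55401 genes, without normalization. The submitters' processing notes name GRCm39, R 4.2.1 and limma 3.54.2, and the aligner, counting program, annotation release and strand setting are not given in the sources used here. Identifiers were identical, with version, to GENCODE M21 (GRCm38) for 98.1% of genes. Counts were filtered with filterByExpr (minimum count 10, minimum total 15), scaled by TMM and tested with edgeR 4.0.16 (quasi-likelihood, Benjamini-Hochberg over 14082 genes, threshold 0.05) in R 4.3.3. Alternatives included DESeq2 1.42.0 and limma-voom (limma 3.58.1). CPM used TMM-scaled library sizes, and RPKM the union of annotated exons and the library total. The procedure was tested on simulated data. List genes named in the text were those with the largest changes past the threshold (up to 4 per list) and the 2 with the highest level per kilobase. A withheld single-gene result is left out of the text, while counts over lists keep it. The members and lists were chosen with earlier results of these data known. Intervals of shares are Wilson 95% intervals, and total counts of 15843045 to 24639756 per library set the precision. Figures were drawn with matplotlib 3.10.9.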

Additional observations from a re-analysis of the deposited data

How the results depend on the processing

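The fall of Cd3e passed the threshold in all 14 alternative analyses, with log2 fold changes of -0.34 to -0.24 and edgeR, DESeq2 or limma adjusted p-values of 7.08e-05 to 0.0102. Of the 10 genes, 2 passed in place of 1, Cd3e and Trbc1, with the replicate block (Trbc1 edgeR adjusted p = 0.0464) and with limma-voom. The same 2 passed at an adjusted p of 0.10. Leaving out 1 replicate gave 1 to 2, the second being Cd247 without NFL replicate 2. Trbc1 passed in none of those runs (edgeR adjusted p = 0.0834 to 0.300). DESeq2 gave no adjusted p for Cd3d, Trac, Cd8a and Cd8b1. Over all genes, 986 passed the threshold, 500 at an adjusted p of 0.01, 731 with the DESeq2 Wald test, 1049 with the replicate block and 508 to 966 without 1 replicate, the lowest counts being 508 without NFL replicate 3 and 616 without NFL replicate 2. With library size alone 372 genes were higher and 600 lower, 38.3% against 49.6% higher with TMM. Of the pathway list genes, 17 passed, and 9 to 15 without 1 replicate. Without 1 replicate the log2 fold change changed sign for Cd3d (-0.0341 to 0.3093), for Fcer1g (-0.0505 to 0.0103) and for Grb2 (-0.0594 to 0.0037), the first and second without control replicate 2 and Grb2 without control replicate 1 or NFL replicate 1. The cause was not tested. Same-numbered libraries of the 2 groups deviated from their group means with correlations of 0.007 to 0.014, each the highest for its own number as a hint from the data, so the numbers were not taken to pair the libraries. Shares within pairs of genes kept their direction in each alternative run. Without 1 replicate, the shares pooled over the remaining libraries were 99.93% to 99.96% for Trbv1 and 88.96% to 92.23% for Trav16n. They were 97.12% to 98.29% for Trbd2 and 28.52% to 30.36% for Trbj2-1. Leaving 1 of 6 libraries out of a pooled share can hardly move it by more than the spread between libraries. These runs therefore say little on how stable the shares are. The Trbj1 share was not rerun in this way. With 14 to 61 counts per library, changes of Trac and Cd8b1 of the size of that of Cd3e could not be resolved. Cd3g, Cd3d and Cd8a had standard errors of 0.141, 0.203 and 0.195 against 0.056 for Cd3e, so such changes were poorly resolved for them too.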
